A study of Mus musculus with 40 samples.

Results

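The T cell receptor beta (Trb) repertoire of EACBE-/- and wild-type thymus was measured in 4 libraries of the 40 samples in the series, out of 12 receptor libraries in all; they are the libraries whose labels name the beta chain. EACBE is the CTCF binding site at the enhancer Ea of the T cell receptor alpha locus (Tcra), on another chromosome than Trb, and the series asks for its role in Tcra rearrangement. EACBE-/- mice lack the site and EACBE+/+ mice (wild type) carry it. Both groups were C57BL/6 mice of 4 to 8 weeks, the tissue was thymus, the cells were labelled thymocytes, and each genotype had replicates 1 and 2. The labels give these libraries no further allele and no treatment. They do not say that the replicates came from separate mice, so p-values measure only the spread between these libraries. Total RNA was copied from an oligo(dT) primer by 5′ RACE with template switching, a method that needs no primer for each V segment, and was then amplified by PCR. The counts cover receptor segments alone, so neither the genotype labels nor the cell type can be checked from them, and in RNA of a whole tissue fewer cells that use a segment and less RNA per cell cannot be told apart.

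Trb is assembled early in thymocyte development, before Tcra, by joining a Trbd to a Trbj segment and then a Trbv segment to that product. The V segment supplies the leader and most of the variable domain, including the loops that mainly contact the MHC molecule, and the J segment supplies the end of the variable domain with part of the loop that mainly contacts peptide. Trbj segments lie in a pair of clusters, Trbj1 and Trbj2, each behind its own D segment and before its own constant gene. Trbv31 lies on the far side of the constant genes and joins by inversion. The enhancer of this locus is Eb, not Ea.

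All 33 segments in the tables, 22 Trbv and 11 Trbj, were found by symbol in the RefSeq annotation of GRCm38.p6, on chromosome 6. Trbv1 is the outermost, at 40891296 to 40891885, and lies 156 kb before Trbv2 (41047556 to 41047995). The array of V segments ends with Trbv30 (41281376 to 41281990), 251 kb before Trbd1. Trbj1-1 lies at 41533864 to 41533911 and Trbj2-7, the last J segment, at 41543810 to 41543856. Trbv31 (41557693 to 41558371) follows 13.8 kb after Trbj2-7 and 9.51 kb after the constant gene Trbc2. Of the 22 Trbv genes that RefSeq gives as V segments, 21 were listed, and Trbv21 was not. Among 13 annotated Trbv pseudogenes only Trbv29 was listed. Of 14 annotated Trbj, Trbj1-6, Trbj1-7 and the pseudogene Trbj2-6 were not listed. Trbv12-1 and Trbv12-2, and likewise Trbv13-1, Trbv13-2 and Trbv13-3, are members of duplicated families. The sources used here do not give how the counting divided similar reads among them, so their separate values are uncertain.

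Depth differed far more between the replicate numbers than between the genotypes. Totals were 11412 and 418135 counts in wild-type replicates 1 and 2, and 20678 and 443589 counts in EACBE-/- replicates 1 and 2. The median count per V-J pair was 38 and 1423 in wild type against 71 and 1528 in EACBE-/-. Trbv31 was listed in replicate 1 of both genotypes alone, where it took 4.85% of the counts in wild type and 4.26% in EACBE-/-. The other 21 V segments gave 231 pairs with the 11 J segments, and all of them had counts in both replicate 2 libraries. In wild-type replicate 1, 5 pairs were at 0, all with Trbv24 or Trbv30, and in EACBE-/- replicate 1, 2 pairs, both with Trbv30. A count of 0 there allows a share of up to 0.0263% and 0.0145%. Intervals and such limits cover counting error only, since the sources used here do not say if the counts are reads or separate receptors. Because replicate 1 is shallow and its totals include Trbv31, the main comparisons are also given within replicate 1 and within replicate 2.

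The order of the V segments by share of a library's counts was close to the same in both genotypes, as the plot of shares by library shows. Trbv5 took 8.82% and 10.4% of counts in wild type against 9.50% and 10.25% in EACBE-/- (replicates 1 and 2 in turn, here and in the following pairs of values). Trbv13-2 took 8.22% and 10.2% in wild type against 8.04% and 9.95% in EACBE-/-. Both genotypes had these 2 segments in the first and second place in replicate 2, and their values overlapped. Trbv13-1 followed, with 8.47% and 8.36% in wild type against 7.71% and 8.65% in EACBE-/-, and Trbv15 had 7.29% and 7.53% against 6.74% and 7.85%. Trbv1, although the farthest from the D segments at 641 kb, took 6.27% and 6.05% in wild type against 6.86% and 5.87% in EACBE-/-. The values of all 3 overlapped between the genotypes. At the other end, Trbv24 took 0.386% and 0.518% in wild type against 0.435% and 0.540% in EACBE-/-, and Trbv30, the last of the array before the D segments, was the least used in every library. Across the 21 V segments, Spearman's rho of use with position along the array was -0.447 and -0.369 in wild type against -0.503 and -0.396 in EACBE-/-, given as a description of segments that share a library.

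**Figure D1:**
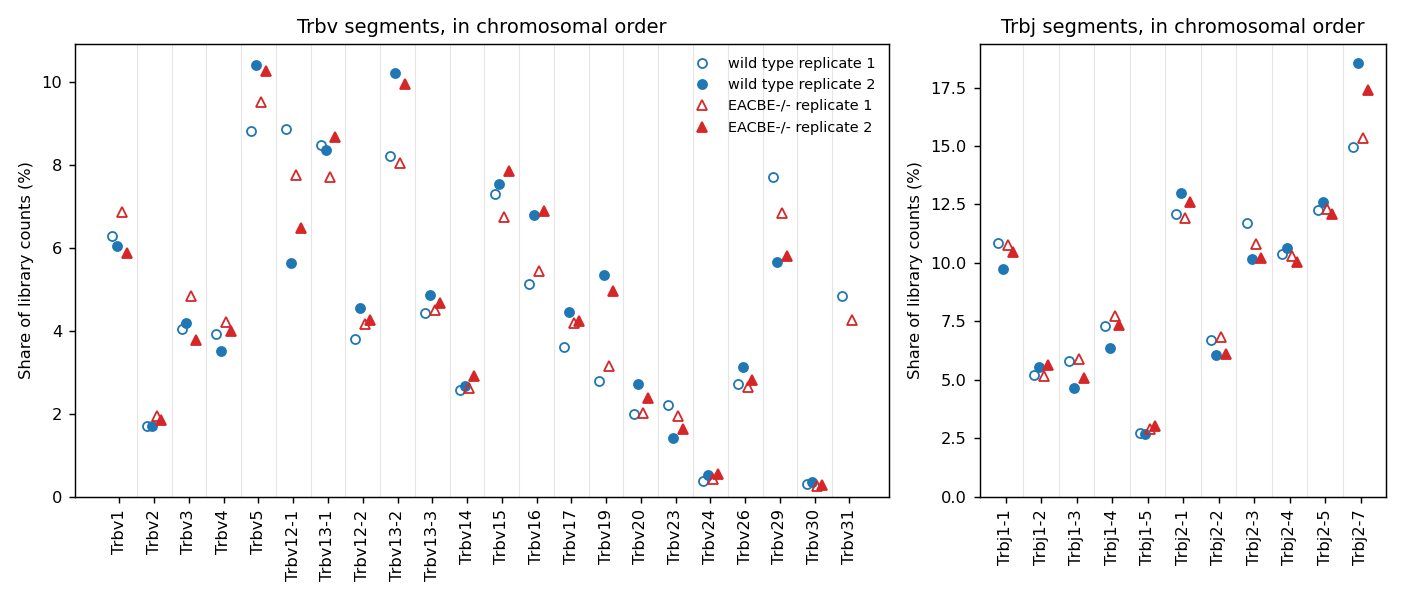
Share of each library's counts (percent, vertical axis from 0) taken by every Trbv (left) and Trbj (right) segment in chromosomal order; circles are wild type, triangles EACBE-/-, open symbols replicate 1 and filled symbols replicate 2. Trbv5, Trbv13-2 and Trbj2-7 lead in replicate 2 of both genotypes, and for Trbv19 and Trbv12-1 open and filled symbols lie farther apart than circles and triangles.

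No V segment passed the test between the genotypes in the model without the replicate number. In a model with that number Trbv30 alone passed, as the last section gives. Of 21 Trbv segments, 0 passed an adjusted p of 0.05 in edgeR's quasi-likelihood test with Benjamini-Hochberg adjustment (0% called), 0 had an unadjusted p below that value, and DESeq2 also called 0. The lowest adjusted p in edgeR was 0.97. Estimated log2 changes, EACBE-/- over wild type, ran from -0.30 to 0.15 with a median of 0.01. All 21 intervals at 95% lay within 2-fold of no difference, and 19 lay within 1.5-fold. The widest reached a ratio of 0.607 at the lower end, for Trbv30, and 1.47 at the upper end, for Trbv19.

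The genotypes did not overlap for 3 of the 21 Trbv segments (14.3%), 2 of them higher (9.52%) and 1 lower in EACBE-/-. Trbv30 took 0.298% and 0.354% in wild type against 0.261% and 0.279% in EACBE-/-. Both EACBE-/- values were lower, on counts of 34 and 1479 in wild type against 54 and 1236 in EACBE-/-. Its log2 change was -0.30 (SE 0.196, 95% interval -0.72 to 0.11, adjusted p = 0.97 in edgeR's quasi-likelihood test), and the log2 ratio was -0.19 within replicate 1 and -0.34 within replicate 2. Trbv2 took 1.71% and 1.71% in wild type against 1.95% and 1.85% in EACBE-/-, and Trbv4 took 3.91% and 3.52% against 4.22% and 3.98%. Both EACBE-/- values were the higher ones for these 2 segments, with log2 changes of 0.15 each and intervals of -0.22 to 0.52 and -0.24 to 0.53. The other 9 segments tested, Trbv3, Trbv12-2, Trbv13-3, Trbv14, Trbv16, Trbv17, Trbv20, Trbv23 and Trbv26, took from 1.41% (Trbv23 in wild-type replicate 2) to 6.89% (Trbv16 in EACBE-/- replicate 2), overlapped between the genotypes and had log2 changes of -0.10 to 0.07. Within the replicate numbers, 5 of the 21 segments were higher in EACBE-/- in both, 3 were lower in both and 13 went opposite ways.

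For most V segments the replicate numbers differed more than the genotypes did. The median size of the log2 difference was 0.0498 between genotypes and 0.163 between replicate numbers, and the genotype difference was the larger one for 3 of 21 segments. Replicate 1 totals alone include Trbv31, which lowers the replicate 1 shares of these 21 segments and so adds to the differences between replicate numbers. Trbv19, a V segment found in the beta chains of many MAIT cells, took 2.78% and 5.35% in wild type against 3.14% and 4.96% in EACBE-/-. Both replicate 2 libraries were higher, by a mean log2 difference of 0.802, and the genotypes overlapped. Trbv12-1 went the other way, with 8.87% and 5.62% in wild type against 7.76% and 6.47% in EACBE-/-, and ranked 1 and 8 among the V segments in wild type and 3 and 6 in EACBE-/-. Trbv29 took 7.69% and 5.64% against 6.83% and 5.81%, again with both replicate 1 values above both replicate 2 values. What made the replicate numbers differ was not tested.

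Grouped by position, the V segments also overlapped between the genotypes. The upstream segments Trbv1 to Trbv5 held 24.7% and 25.9% of counts in wild type against 27.4% and 25.7% in EACBE-/-, a mean difference of 1.25 points (2.62 within replicate 1 and -0.113 within replicate 2). A two-sided exact permutation test gave p = 0.667, and 0.333 is the smallest p that 2 libraries against 2 allow. The Trbv12 and Trbv13 segments held 33.8% and 33.6% against 32.2% and 34.0%, the central segments Trbv14 to Trbv20 held 23.3% and 29.5% against 24.1% and 29.2%, and the downstream segments Trbv23 to Trbv30 held 13.3% and 11.0% against 12.1% and 11.1%. In these 3 groups the mean differences were -0.606, 0.227 and -0.58 points, each with p = 1 in the exact permutation test. None of the 5, 5, 6 and 5 segments tested in these 4 groups passed, and their median log2 changes were 0.07, -0.02, 0.01 and -0.07, beside 0.01 over all 21 segments.

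Some V segments are known from unconventional T cells with semi-invariant receptors. Trbv1, the 3 Trbv13 segments and Trbv29 make most beta chains of invariant NKT cells, and conventional T cells use them too. Together they held 35.1% and 35.1% of counts in wild type against 33.9% and 34.9% in EACBE-/-. Both EACBE-/- values were lower, by a mean of 0.661 points (exact permutation p = 0.333, the smallest possible), and 0 of the 5 segments passed the edgeR test. The difference was -1.14 points within replicate 1 and -0.178 within replicate 2, and 4 of the 5 segments went opposite ways. The segments common in MAIT cells, the 3 Trbv13 segments and Trbv19, held 23.9% and 28.8% in wild type against 23.4% and 28.2% in EACBE-/-, which overlapped (exact permutation p = 0.667). Their difference was -0.506 points within replicate 1 and -0.55 within replicate 2, and 3 of these 4 segments went opposite ways.

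The J segments followed one order in all libraries at both ends. Trbj2-7 took 14.9% and 18.6% of counts in wild type against 15.3% and 17.4% in EACBE-/- and ranked first in each. Trbj2-1 (12.1% and 13.0% against 11.9% and 12.6%) and Trbj2-5 (12.3% and 12.6% against 12.3% and 12.1%) took the next 2 places in every library, in either order. Trbj1-5 was last in each. Between the genotypes the values of these 3 Trbj2 segments overlapped.

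Of 11 Trbj segments, 0 passed an adjusted p of 0.05 in the same model without the replicate number (edgeR's quasi-likelihood test with Benjamini-Hochberg adjustment, 0% called), 1 had an unadjusted p below that value (9.09%), and DESeq2 called 0, with 0 below it unadjusted. A model with the replicate number called Trbj1-4 and Trbj1-5, as the last section gives. In the model without it, all 11 intervals lay within 1.5-fold of no difference, between ratios of 0.767 and 1.37. Groups did not overlap for 3 of 11 segments (27.3%): Trbj1-4 and Trbj1-5 (18.2%) were higher and Trbj2-4 was lower in EACBE-/-. Trbj1-5, the last listed segment of the first cluster (41535084 to 41535133), took 2.73% and 2.69% in wild type against 2.91% and 3.01% in EACBE-/-. Its means were 2.71% ± 0.0277 and 2.96% ± 0.0674 (SD, n = 2), and its log2 change was 0.13 (SE 0.0399, 95% interval 0.03 to 0.24, unadjusted p = 0.0229, adjusted p = 0.252, edgeR). The wild-type SD is smaller than counting error. In wild-type replicate 1 the 95% Wilson interval was 2.44 to 3.04, which holds both EACBE-/- values. In replicate 2 the intervals lay apart, at 2.64 to 2.74 in wild type and 2.96 to 3.06 in EACBE-/-. The log2 ratio was 0.10 within replicate 1 and 0.16 within replicate 2. Trbj1-4, its neighbour at 41534811 to 41534861, took 7.29% and 6.35% in wild type against 7.72% and 7.33% in EACBE-/-. Here the lower EACBE-/- value was just above the higher wild-type value, and the log2 change was 0.15 (SE 0.0944, 95% interval -0.10 to 0.40, adjusted p = 0.858 in edgeR). Trbj2-4 took 10.4% and 10.6% against 10.3% and 10.04%, a log2 change of -0.05. Trbj1-1, Trbj1-2, Trbj2-2 and Trbj2-3 overlapped, with log2 changes between -0.05 and 0.05. The replicate numbers differed by more than the genotypes for 7 of the 11 segments, most for Trbj1-3, with 5.82% and 4.66% in wild type against 5.91% and 5.08% in EACBE-/-.

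**Figure D2:**
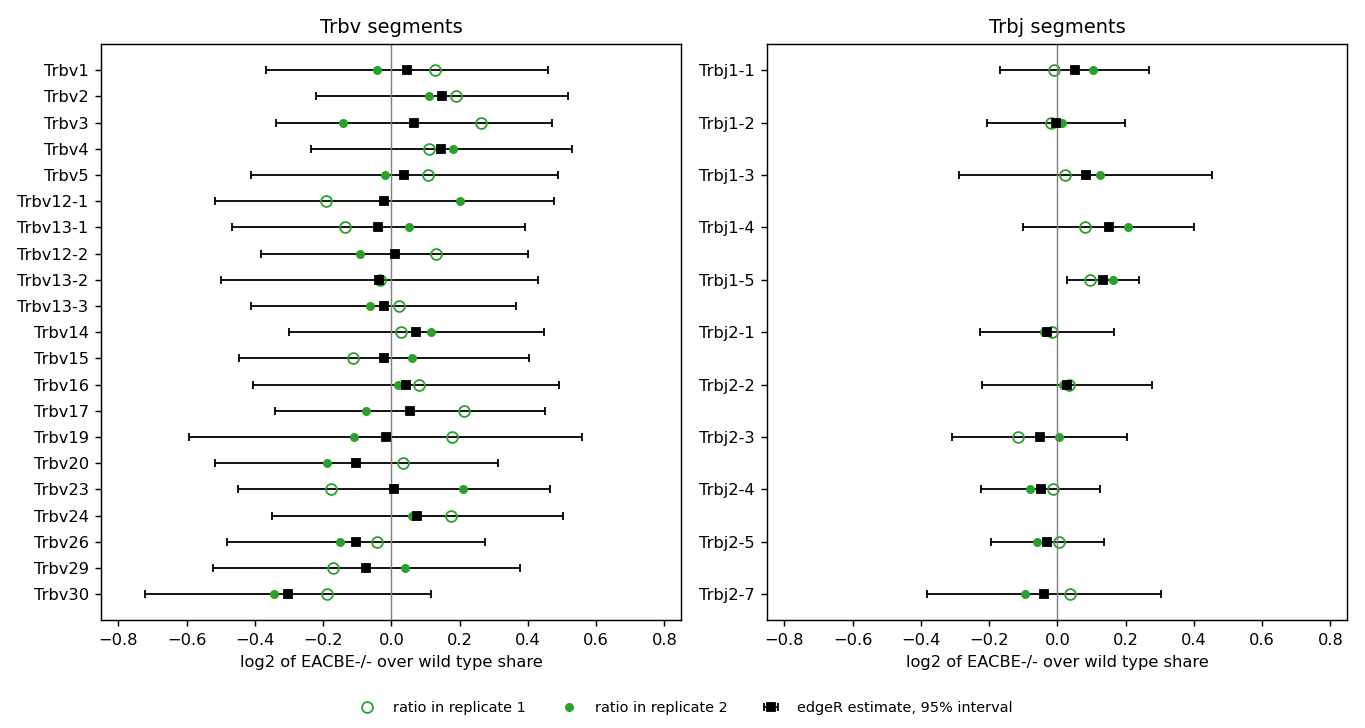
Log2 of the EACBE-/- over the wild-type share (horizontal axis) for the 21 Trbv segments listed in all libraries (left) and the 11 Trbj segments (right); squares with bars are edgeR estimates with 95% intervals, open and filled circles the ratios within replicate 1 and replicate 2. Only the interval of Trbj1-5, 0.03 to 0.24, leaves out 0, and its adjusted p was 0.252.

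The 5 listed segments of the first J cluster together held 31.9% (95% Wilson interval 31.0 to 32.8) and 29.0% (28.9 to 29.1) of counts in wild type, and 32.4% (31.8 to 33.1) and 31.5% (31.4 to 31.6) in EACBE-/-. Trbj1-6 and Trbj1-7 were not listed and are outside these shares. The values overlapped, with means of 30.4% ± 2.05 and 32.0% ± 0.66 (SD, n = 2), a difference of 1.53 points (exact permutation p = 0.667). It was 0.549 points within replicate 1 and 2.51 points within replicate 2. Without wild-type replicate 2, which had the lowest value, the difference was 0.0819 points. Inside the cluster, Trbj1-1 made up 34.0% and 33.6% of the Trbj1 counts in wild type against 33.2% and 33.2% in EACBE-/-. Trbj1-4 made up 22.9% and 21.9% against 23.8% and 23.3%. Trbj1-2 differed more between replicate numbers, with 16.4% and 19.2% against 15.9% and 17.8%.

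The share of the Trbj1 cluster varied among the V segments, although several had nearly the same share, such as Trbv2, Trbv5 and Trbv12-2 with 28.9%, 28.8% and 28.7% in wild-type replicate 2. Trbv17 used the Trbj1 cluster least in 3 of the 4 libraries, for 18.5% and 19.7% of its counts in wild type against 22.2% and 22.6% in EACBE-/-. Trbv30 used it for 11.8% (4 of 34 counts, Wilson interval 4.67 to 26.6) and 22.1% in wild type against 24.1% and 23.5% in EACBE-/-. By the mean of the libraries, Trbv26 (34.8% and 33.7% against 37.2% and 36.8%) and Trbv20 (31.9% and 34.0% against 37.5% and 37.5%) were the highest of the 21. The highest in a single library were Trbv13-1 (36.5%) and Trbv29 (34.4%) in wild-type replicates 1 and 2, and Trbv24 (38.9% of 90 counts) and Trbv20 in EACBE-/- replicates 1 and 2. In Trbv17, Trbv30, Trbv26 and Trbv20 both EACBE-/- values were above both wild-type values.

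Across the V segments the Trbj1 share was higher in EACBE-/- for 13 of 21 in replicate 1 and for 20 of 21 in replicate 2, by a median of 1.49 and 2.59 points. The exception in replicate 2 was Trbv2, with 28.9% in wild type and 28.7% in EACBE-/-. It was higher in both replicates for 13 segments, lower in both for 1 and opposite for 7. Groups did not overlap for 7 of the 21 (33.3%), which were Trbv12-1, Trbv13-2, Trbv17, Trbv20, Trbv24, Trbv26 and Trbv30, all higher in EACBE-/-. With 2 libraries against 2, a segment without any difference would fail to overlap, in either direction, with a probability of 0.333. That holds only if all 4 libraries vary alike and independently. Same-numbered libraries deviated together, so 0.333 is not a fair measure of how many segments to expect here. Trbv24 and Trbv30 had only 44 and 34 counts in wild-type replicate 1. These V segments share their libraries, so the counts describe one difference between the libraries and are not 21 separate observations of it. The Trbj1 share had no steady relation to position, with Spearman's rho of -0.191 and 0.174 in wild type against 0.216 and 0.31 in EACBE-/-.

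**Figure D3:**
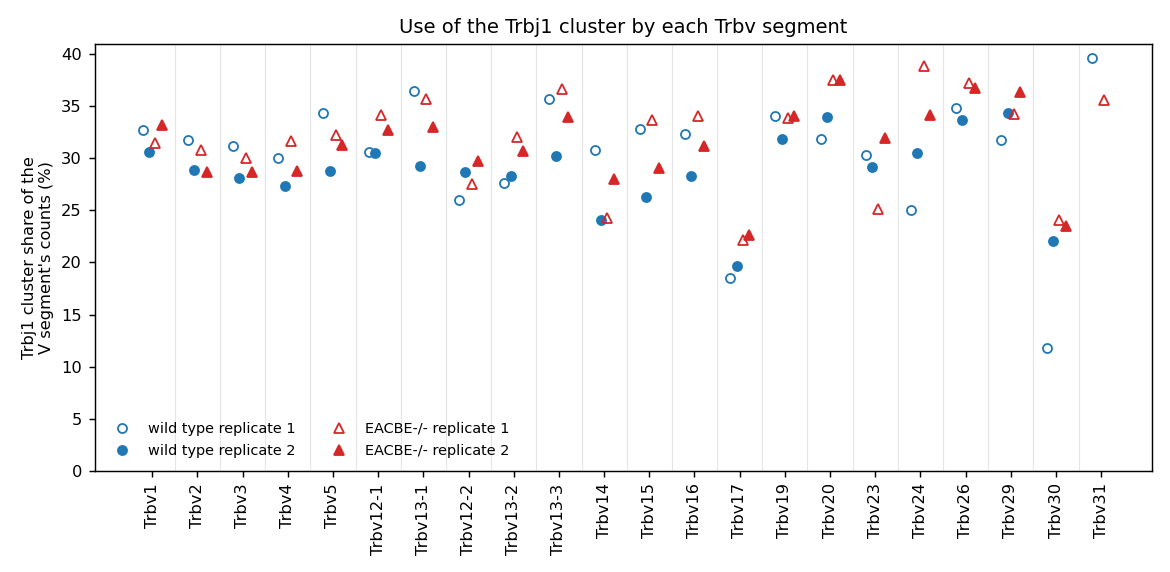
Percent of each Trbv segment's counts that carry a Trbj1 segment (vertical axis, from 0), in chromosomal order; circles are wild type, triangles EACBE-/-, open symbols replicate 1 and filled symbols replicate 2. Filled triangles lie above filled circles for 20 of the 21 segments listed in all libraries, and Trbv17 and Trbv30 lie lowest.

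Trbv31, the inverted segment, could be compared in replicate 1 alone, so its comparison has no replicate. It joined the Trbj1 cluster in 39.6% of its 553 counts in wild type (Wilson interval 35.6 to 43.7) and 35.6% of its 880 counts in EACBE-/- (32.5 to 38.8), where the whole libraries had 31.9% and 32.4%. With Trbj1-2 it had 43 and 80 counts, 7.78% and 9.09% of its total, beside 5.09% and 4.98% for the other V segments, which is 1.53 and 1.83 times their share. With Trbj1-3 the genotypes went apart, at 1.67 times the share of the other V segments in wild type and 0.921 times in EACBE-/-.

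Single V-J pairs were tested next, since a pair can differ while its segments do not. Of 231 pairs, 0 passed an adjusted p of 0.05 in edgeR's quasi-likelihood test with Benjamini-Hochberg adjustment (0% called), 0 had an unadjusted p below it, and DESeq2 called 0. The lowest adjusted p in edgeR was 0.998. Estimated log2 changes ran from -0.63 to 0.78, and 216 of 231 intervals lay within 2-fold of no difference, 56 within 1.5-fold. Groups did not overlap for 50 pairs (21.6%), of which 32 (13.9%) were higher in EACBE-/-.

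The most frequent pairs joined the most used segments. Trbv13-2 with Trbj2-7 took 1.48% and 1.94% of all counts in wild type against 1.47% and 1.80% in EACBE-/-. Trbv5 with Trbj2-7 took 1.13% and 1.89% against 1.26% and 1.74%, and Trbv12-1 with Trbj2-7 took 1.63% and 1.11% against 1.40% and 1.22%. These 3 pairs overlapped between the genotypes and differed more by replicate number. The rest of the 6 largest, Trbv13-1 with Trbj2-7, Trbv15 with Trbj2-7 and Trbv5 with Trbj2-5, also overlapped. The estimated log2 changes of the 6 lay between -0.16 and 0.02.

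The pairs with the lowest p-values were on far smaller counts. Trbv12-1 with Trbj1-5 had 9 and 280 counts in wild type against 21 and 442 in EACBE-/-, or 0.0789% and 0.0670% against 0.102% and 0.0996%. Both EACBE-/- shares were higher, with a log2 change of 0.54 (95% interval -0.00 to 1.09; unadjusted p = 0.0513, adjusted p = 0.998, edgeR). Trbv26 with Trbj2-5 took 0.359% and 0.346% against 0.208% and 0.272%, and Trbv20 with Trbj2-1 took 0.403% and 0.376% against 0.208% and 0.309%. Both EACBE-/- values were the lower ones in these 2 pairs, at log2 changes of -0.50 and -0.51. Trbv30 with Trbj2-7 had 8 and 317 counts against 6 and 246, a log2 change of -0.57. Trbv24 with Trbj1-3 had 0 and 95 counts against 10 and 151, a log2 change of 0.78. Its log2 ratio was 0.58 within replicate 2 and has no finite value within replicate 1, where wild type was at 0.

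The pairs were also counted by J segment. Of the 225 pairs with counts in all libraries, 67 were higher in EACBE-/- in both replicates, 44 lower in both and 114 opposite. The counts by J segment also include 6 pairs at 0 in a library, of which Trbv24 with Trbj1-3 and with Trbj1-5, at 0 in wild-type replicate 1, count as higher in both. With Trbj1-4, 14 of 21 pairs were higher in both and 0 lower in both, and 10 did not overlap, all higher. With Trbj1-5 these numbers were 13, 1 and 6, and with Trbj1-3 they were 11, 1 and 7. Over all 231 pairs, 50 did not overlap (21.6%), of which 32 (13.9%) were higher in EACBE-/-. All pairs of the Trbj1 cluster together, 105 in number, had 50 higher and 6 lower in both, whereas the 126 pairs of the Trbj2 cluster had 19 and 38. By V segment, all 11 pairs of Trbv4 had a positive estimate, and 9 of 11 pairs of Trbv30 a negative one. Pairs that share a segment share its sum, so these counts are descriptions.

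To see the pairing apart from the use of the segments, each pair's count was divided by the count expected from its V total and J total in the same library. Association was weak in every library. Cramer's V with bias correction, which is 0 without association and 1 at its most, was 0.0503 and 0.0407 in wild type against 0.0430 and 0.0399 in EACBE-/-. Knowing the V segment removed 0.596% and 0.371% of the J entropy in wild type against 0.413% and 0.352% in EACBE-/-. For both measures the shallowest library had the highest value and the 2 deep libraries were closest to each other.

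In the deep libraries most deviations went the same way in both genotypes, as the maps of pairing in the replicate 2 libraries show. Observed over expected was above 1 or below 1 in both for 202 of 231 pairs, and opposite for 29. The median size of the log2 ratio was 0.114 in wild type and 0.117 in EACBE-/-, while the median difference between them was 0.0426. A pair was more than 1.5-fold from its expected count in 13 cases in wild type and in 12 in EACBE-/-, and 12 were common to both. Pearson's r of the log2 ratios over the 214 pairs with an expected count of at least 5 in each library was 0.962 between the deep libraries of the 2 genotypes. It was 0.703 and 0.724 between replicates of wild type and of EACBE-/-, and 0.492 between the shallow libraries. These correlations are across pairs, which are not independent; the highest was between the deepest libraries and the lowest between the shallowest.

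**Figure D4:**
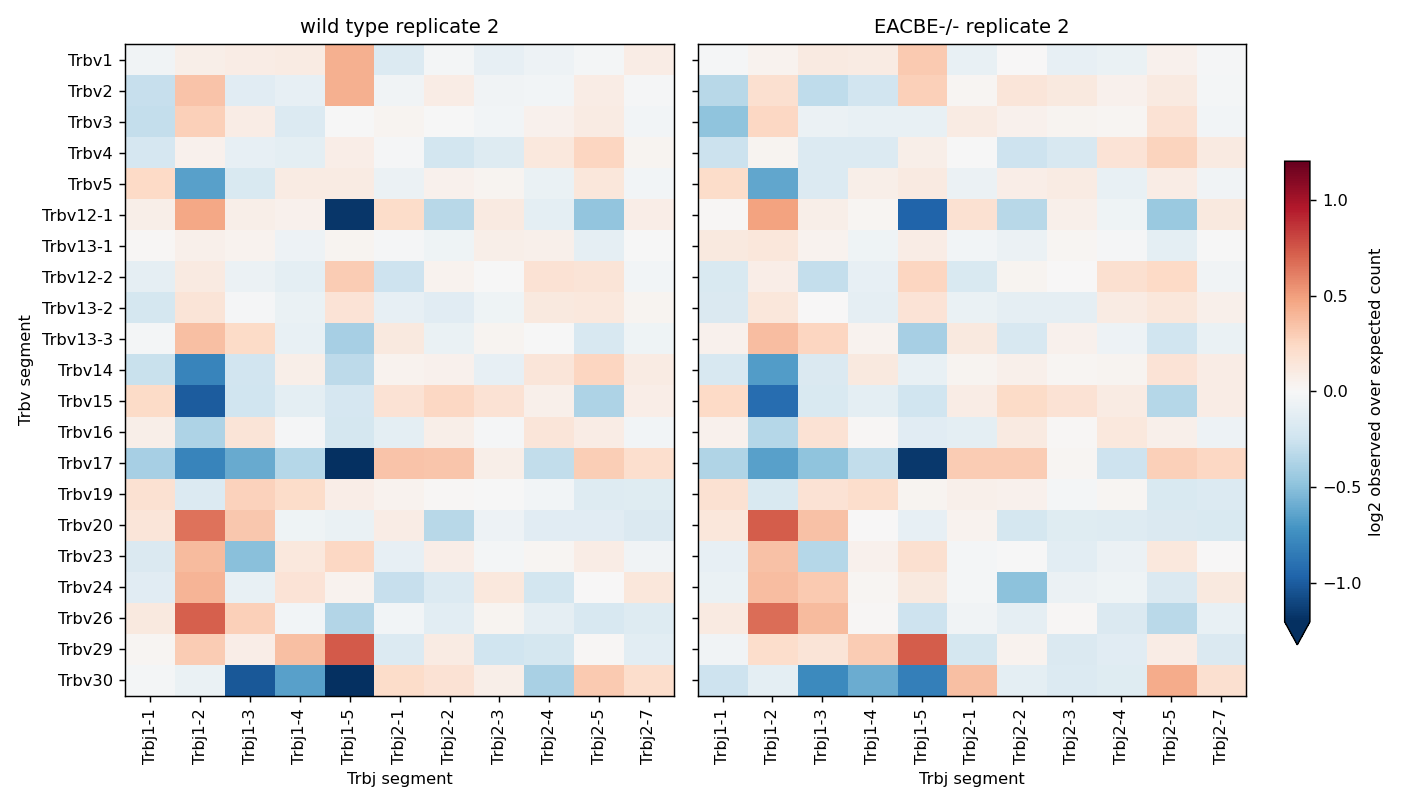
Log2 of observed over expected count (colour; red above, blue below) for the 231 pairs of Trbv (rows, chromosomal order) and Trbj (columns) segments in wild-type replicate 2 (left) and EACBE-/- replicate 2 (right); values under the end of the colour bar are drawn in its darkest blue. The dark cells of Trbv12-1 and Trbv17 with Trbj1-5 and of Trbv15 with Trbj1-2 recur in both maps.

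Depleted pairs were mostly those of Trbj1-5 and Trbj1-2. The 6 pairs with the lowest mean ratio, among those with an expected count of at least 5 in every library, were all with Trbj1 segments. Trbv17 with Trbj1-5 had 0.449 and 0.398 of the expected count in wild type against 0.356 and 0.447 in EACBE-/-, on 5, 199, 9 and 252 counts. Trbv12-1 with Trbj1-5 had 0.328 and 0.443 against 0.447 and 0.512. Both pairs were below expected in each library, and only in the second were both EACBE-/- ratios above both wild-type ratios. Trbv15 with Trbj1-2 had 0.401 and 0.501 against 0.635 and 0.530, and Trbv17 with Trbj1-2 had 0.430 and 0.577 against 0.652 and 0.635. In these 2 pairs both EACBE-/- ratios were nearer to 1. Trbv23 with Trbj1-3 (0.424 and 0.705 against 0.588 and 0.788) and Trbv14 with Trbj1-5 (0.253 on 2 counts and 0.802 against 0.760 and 0.937) varied most with replicate number among the 6.

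Enriched pairs involved the same 2 J segments with other V partners. Trbv29 with Trbj1-5 had 1.30 and 1.67 times the expected count in wild type and 1.67 and 1.65 times in EACBE-/-. Trbv26 with Trbj1-2 had 1.20 and 1.64 against 1.77 and 1.59, and Trbv20 with Trbj1-2 had 1.22 and 1.57 against 1.10 and 1.66. All 3 overlapped between the genotypes. Trbv12-1 with Trbj1-2 had 1.47 and 1.38 against 1.25 and 1.39, so the same V segment was enriched with Trbj1-2 and depleted with Trbj1-5 in every library. Trbv1 with Trbj1-5 (1.44 and 1.34 against 1.28 and 1.25) and Trbv2 with Trbj1-5 (1.52 and 1.35 against 1.27 and 1.22) were above expected in all libraries, with both EACBE-/- ratios the lower ones.

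Trbj1-2 carried the largest part of the association in the deep libraries. It gave 30.6% of the chi-square of the table in wild type and 29.0% in EACBE-/-, although it took 5.57% and 5.62% of the counts. Trbj2-5 gave 13.9% and 15.1%, and Trbj1-5 gave 13.1% and 12.6%. Among V segments, Trbv17 gave 16.1% and 13.7%, Trbv15 14.1% and 13.6%, and Trbv12-1 11.5% and 12.3%. Trbv13-1, one of the most used, gave 0.768% and 1.28%. The shallow libraries gave another order, with 13.5% and 13.6% for Trbj1-2 against 13.6% and 16.9% for Trbj2-5, and 6.59% and 3.96% for Trbv13-1.

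The test of the pairing ratio asked whether any pair's observed over expected ratio differed between the genotypes. Of 231 pairs, 0 passed an adjusted p of 0.05 in edgeR's quasi-likelihood test with Benjamini-Hochberg adjustment (0% called), 4 had an unadjusted p below it (1.73%), and DESeq2 called 0. Groups did not overlap for 63 pairs (27.3%), of which 26 (11.3%) were higher in EACBE-/-. The intervals were narrow, with 229 within 2-fold and 220 within 1.5-fold of no difference. They mainly bound the difference between the 2 deep libraries, which hold most of the counts. For Trbv14 with Trbj1-1 the log2 difference was -0.95 within replicate 1 and 0.08 within replicate 2, and the estimate was 0.02. For Trbv24 with Trbj1-2 these values were 2.16, -0.04 and 0.005. Trbv3 with Trbj1-1 had the lowest p, at 0.863 and 0.819 of the expected count in wild type against 0.788 and 0.714 in EACBE-/-. Both EACBE-/- ratios were lower, at a log2 difference of -0.19 (95% interval -0.30 to -0.07; unadjusted p = 0.00411, adjusted p = 0.949, edgeR). The others below 0.05 unadjusted were Trbv12-2 with Trbj1-3 (log2 difference -0.21), Trbv26 with Trbj2-5 (-0.16) and Trbv24 with Trbj2-1 (0.27, on 3 counts in wild-type replicate 1), and Trbv13-3 with Trbj2-2 followed (-0.13). Between the deep libraries the largest difference was for Trbv30 with Trbj1-5, at 0.788 on the log2 scale, on 13 counts in wild type and 21 in EACBE-/-.

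**Figure D5:**
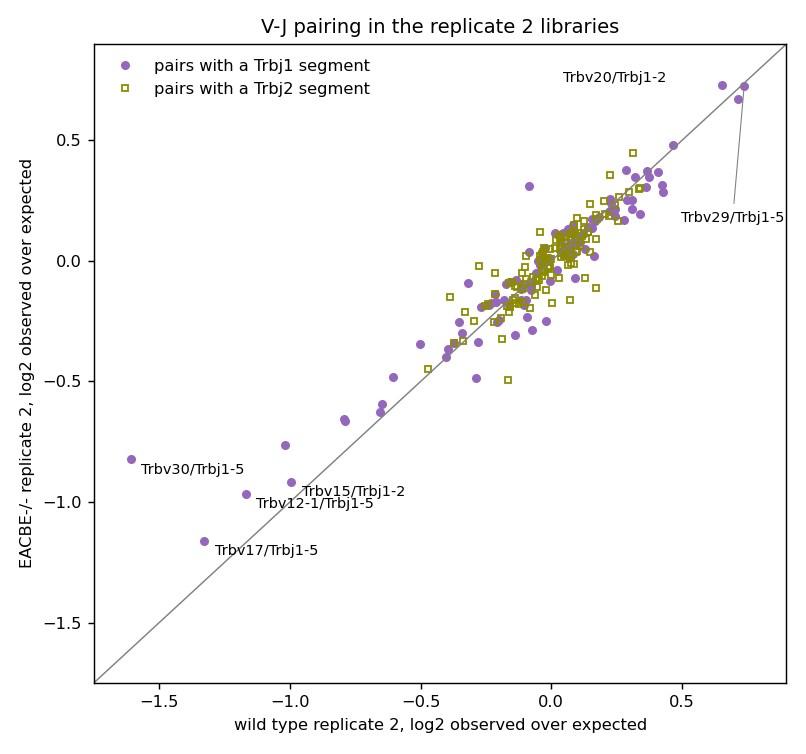
Log2 of observed over expected count in wild-type replicate 2 (horizontal) against EACBE-/- replicate 2 (vertical) for 231 V-J pairs; filled circles are pairs with a Trbj1 segment, open squares with a Trbj2 segment, and the line marks equal values. Most pairs lie near the line (median difference 0.0426), the depleted pairs named are all with Trbj1 segments, and Trbv30/Trbj1-5 lies farthest off on 13 and 21 counts.

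V segments could also be compared by their J profiles, the percent of a V segment's counts that each J segment takes. In the deep libraries, averaged over both genotypes, the profiles of 2 V segments lay a median of 7.03 points apart over 210 pairs of V segments (total variation distance, the summed excess of one profile over the other). Trbv20 and Trbv26 were nearest, 2.51 points apart, and Trbv17 and Trbv20 farthest, 15.3 points. The duplicated segments were not all alike. Trbv13-1 lay 3.54 points from Trbv13-3 and 3.79 from Trbv13-2, whereas Trbv13-2 and Trbv13-3 were 6.45 points apart and Trbv12-1 and Trbv12-2 were 10.6 points apart. The profile of one V segment differed between the genotypes by 1.54 to 6.06 points in replicate 2, with a median of 3.07.

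Diversity did not separate the genotypes. At an equal depth of 10859 counts, 226.0 and 229.0 pairs were expected to be seen in wild type against 228.2 and 228.9 in EACBE-/-, of 231. The effective number of pairs (inverse Simpson) was 144.2 and 138.4 against 150.1 and 143.1, and the 10 most frequent pairs held 12.7% and 14.7% of counts against 12.4% and 14.0%. Both values overlapped between the genotypes. Within each replicate number, EACBE-/- had the higher effective number of pairs and the lower share of the 10 most frequent. The number of pairs expected at equal depth went opposite ways in the replicate numbers. None of these differences was tested. The effective number of V segments was 17.3 and 17.5 against 17.5 and 17.4, and of J segments 10.1 and 9.79 against 10.1 and 10.0.

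Whole libraries lay nearer to the other genotype of their own replicate number than to their own genotype. For V shares over the 21 common segments, the distance was 9.01 points between the wild-type replicates and 6.79 between the EACBE-/- replicates, but 4.30 between genotypes in replicate 1 and 2.79 in replicate 2. For J shares these distances were 5.19, 3.38, 1.35 and 2.62 points, and for V-J pairs 12.5, 8.83, 7.96 and 4.20 points. Counting error is not equal among these distances. Those between replicates join a shallow and a deep library, that within replicate 1 joins the shallow libraries and that within replicate 2 the deep ones. How many points counting error adds to each was not estimated. With independent counts, counting error alone would give a chi-square per degree of freedom near 1. Between genotypes in replicates 1 and 2 it was 1.02 and 87.9 for J shares. For V shares it was 3.28 and 51.8, and for V-J pairs 1.36 and 9.67. These values also rise with depth. The 2 replicate tables of a genotype were not copies of each other. Their V counts differed by a chi-square of 33.6 per degree of freedom in wild type and 26.7 in EACBE-/-. Whether they came from separate library preparations was not tested. The Tcra libraries of the same groups showed another arrangement for J segments, with 9.10 and 6.50 points between replicates and 11.6 and 13.6 points between genotypes. Their V shares lay 17.9 and 17.0 points apart between replicates and 17.8 and 17.5 between genotypes, and their V-J pairs 31.3 and 25.1 against 35.0 and 24.8. That the loci differ was not tested.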

How the data were processed

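The authors deposited each of the 4 Trb libraries as a table of whole-number counts, V segments against J segments. The sources used here name no program for the assignment and do not say if reads or separate receptors were counted. If counts are reads, PCR adds to the spread between libraries and 1 abundant transcript can outweigh many rare ones. The series used, per the submitters' processing notes, the build mm10 and the tools Juicer 1.13.02, HiC-Pro 2.11.1, bedtools 2.26.0, cutadapt 0.4.4 and Bowtie2 (2.20.8, 2.3.4.3); the notes name no step for any of them. Groups came from the labelled genotype. Segment positions are those of RefSeq for GRCm38.p6, on which mm10 is based.

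Segment sums and pairs were tested by edgeR's quasi-likelihood test (edgeR 4.0.16 in R 4.3.3). Library sizes were the table totals without TMM scaling. The filterByExpr defaults of 10 (count) and 15 (total) were applied, which all 21 Trbv, 11 Trbj and 231 pairs passed. Benjamini-Hochberg adjustment was made in each of these families separately, with a threshold of 0.05. Trbv31, in replicate 1 alone, was kept in totals and J sums but not tested. The standard error is the log2 change divided by the root of edgeR's F, and 95% intervals use its total degrees of freedom. The pairing test had the expected count (V total times J total over the table total) as offset. List shares were tested by exact two-sided permutation of the libraries, and Wilson intervals are at 95%. Association, diversity and distances use the 21 V segments listed in every table, a choice made after the tables were seen. The main edgeR fits were checked on simulated data, but the alternatives listed below were not. For segment sums and pairs the simulated counts held no shared effect of the replicate number. Python 3.11.15 with numpy 2.4.6, pandas 2.3.3, scipy 1.17.1 and matplotlib 3.10.9 did the rest. The Tcra tables served for distances alone.

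Every listed segment was described. Pairs were named by lowest p in each pair test (5 each, since none passed), largest mean share (6), and highest and lowest mean observed over expected ratio (6 each) with an expected count of 5 or more in every library. The segments, lists and tests were chosen with earlier results of these data known. Alternatives were TMM factors, no filter, totals over the V segments listed in both replicate numbers, DESeq2 1.42.0 (with a mean dispersion fit), the replicate number as a block, each library left out, a minimum expected count, lists without their most used member, each pair counted once and, added after the data were seen, all V segments listed in each table.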

Additional observations from a re-analysis of the deposited data

How the results depend on the processing

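The labels do not say that a replicate number marks a shared batch, so the number was not used to pair the samples. Same-numbered libraries were alike in depth and in whether Trbv31 was listed, and the deviations of same-numbered libraries from their genotype's mean correlated at 0.827 over the Trbv segments, 0.903 over the Trbj segments and 0.51 over the pairs. With the replicate number as a block (replicate block), edgeR's quasi-likelihood test called 1 Trbv segment, Trbv30 (log2 change -0.32, adjusted p = 0.0107), and 2 Trbj segments, Trbj1-4 (0.17) and Trbj1-5 (0.15, adjusted p = 0.0237 for both), in place of 0 and 0, and it called 0 pairs (7 unadjusted) and 0 pairing ratios. Under all the other alternatives run, each library left out among them, every family had 0 calls. In 775 refits of 84 named segments and pairs, these 3 calls were the only ones that crossed the threshold, and 101 estimates changed sign without passing. The largest estimate of a Trbv segment in any refit was a log2 size of 0.56, for Trbv19 without wild-type replicate 2. With each pair counted once, the difference was -0.145 points both for the upstream and for the invariant NKT segments. All their pairs had counts in every library, so this value is set by pairs at 0 of other V segments and does not describe these lists. The mean distance between genotypes minus that between replicates was -2.31 points for V shares (-3.9 to -0.916 with a library left out), -1.05 for J shares (-2.02 to 0.558) and -2.31 for pair shares (-5.11 to 0.427); the positive values came without wild-type replicate 1 for J and without wild-type replicate 2 for pairs, and the cause was not tested. Depth limits the replicate 1 libraries most, with median counts of 38 and 71 per pair.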
